A study of Homo sapiens with 2 samples.

Results

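MYC, a transcription factor that drives cell growth, was found at many separate peaks around the start sites of 5 genes: SPAG7, ARHGDIA, SPHK1 and IGF2BP1 on chromosome 17 and KMT2A on chromosome 11. These genes were chosen by the number of MYC peaks near their starts in this same peak list, so the numbers below are a description and carry no test. Members are the peaks whose summit lay within 5 kb of the GRCh37 start site of a gene, 29 peaks of the 17659 in the list. The experiment was a ChIP-seq of MYC that asked where full-length MYC sits on the genome, with 1 ChIP library and 1 input library. Both came from SH-EP/TET21/N (TET21) cells, a human neuroblastoma line that expressed WT-MYC ectopically and had been kept in 1 µg/mL doxycycline for 7 days before fixation in 1% formaldehyde for 10 min. TET21 is known as a single clone of SH-EP cells with a doxycycline-repressible MYCN transgene. Whether the antibody, a rabbit polyclonal made in the submitters' laboratory, tells ectopic from endogenous MYC is not stated in the labels. No value below has a replicate error, and intervals cover counting error only.

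MYC pairs with MAX and prefers the E-box CACGTG, but at high MYC levels it is known to occupy most active promoters, many of which lack that motif and are rich in CpG. SPAG7 encodes a nuclear protein with an R3H domain, a fold that binds single-stranded nucleic acid. SPHK1 encodes a lipid kinase that makes sphingosine-1-phosphate, a signalling lipid. IGF2BP1 encodes an oncofetal RNA-binding protein that is known to protect the MYC messenger RNA from decay, and KMT2A encodes the MLL histone methyltransferase of active promoters.

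The sequence in front of the starts is shown because a peak lay over the start site in every window. RefSeq (GRCh38.p14) gave promoters for 4 of the 5 genes, as 7 entries: 1 for SPAG7, 2 for ARHGDIA with starts 340 bp apart, 3 for SPHK1 with steps of 1405 and 669 bp between starts, and 1 for KMT2A. Each line gives the 250 bases before a start, 5′ to 3′ in the direction of the gene, and capitals mark matches on either strand to the E-box CACGTG, its variants CACGCG and CATGTG, or the GC box GGGCGG. Which RefSeq start equals the GRCh37 start used for the peaks was not established across builds, so summits cannot be placed on these letters. The other 2 entries of SPHK1 are not printed: the middle start had 2 GC boxes and the most downstream start none of these motifs.
SPAG7, chr17:4967818-4968067, minus strand: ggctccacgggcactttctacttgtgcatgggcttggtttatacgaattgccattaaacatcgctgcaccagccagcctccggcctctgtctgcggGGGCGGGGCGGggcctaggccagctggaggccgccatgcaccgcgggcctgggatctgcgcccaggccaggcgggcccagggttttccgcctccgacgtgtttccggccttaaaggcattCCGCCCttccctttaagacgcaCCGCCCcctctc
ARHGDIA, outer start, chr17:81871338-81871587, minus strand: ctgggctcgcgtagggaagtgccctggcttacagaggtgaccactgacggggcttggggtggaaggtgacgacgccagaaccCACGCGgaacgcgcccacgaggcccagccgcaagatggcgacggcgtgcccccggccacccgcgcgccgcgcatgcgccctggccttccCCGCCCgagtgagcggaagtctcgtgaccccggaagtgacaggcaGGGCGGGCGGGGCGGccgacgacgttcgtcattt
ARHGDIA, inner start, chr17:81870998-81871247, minus strand: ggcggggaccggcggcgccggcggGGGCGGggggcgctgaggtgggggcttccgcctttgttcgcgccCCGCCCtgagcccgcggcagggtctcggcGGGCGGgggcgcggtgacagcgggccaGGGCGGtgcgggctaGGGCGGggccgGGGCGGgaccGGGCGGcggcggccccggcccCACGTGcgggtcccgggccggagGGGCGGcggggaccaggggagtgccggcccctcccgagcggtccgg
SPHK1, most upstream start, chr17:76382954-76383203, plus strand: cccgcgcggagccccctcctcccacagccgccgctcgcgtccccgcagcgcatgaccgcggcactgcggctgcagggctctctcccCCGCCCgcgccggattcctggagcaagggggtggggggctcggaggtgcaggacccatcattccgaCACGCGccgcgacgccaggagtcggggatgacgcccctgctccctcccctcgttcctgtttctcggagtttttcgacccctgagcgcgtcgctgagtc
KMT2A, chr11:118436242-118436491, plus strand: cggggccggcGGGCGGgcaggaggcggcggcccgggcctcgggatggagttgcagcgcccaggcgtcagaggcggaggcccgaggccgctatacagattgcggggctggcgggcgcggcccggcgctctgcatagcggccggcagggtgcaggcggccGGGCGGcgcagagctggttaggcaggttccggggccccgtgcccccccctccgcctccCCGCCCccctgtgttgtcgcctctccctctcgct

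CACGTG was found in 1 of these 7 entries, at the inner start of ARHGDIA, where it began 69 bp before the start. It is held by 7.26% of the 35116 RefSeq promoters of the same 300-base window, which reaches from 250 bases before the start to 50 after it. The variant CACGCG was found in 3 entries, both of ARHGDIA and the most upstream of SPHK1, against 11.4% of all promoters. At the inner start of ARHGDIA it lay 24 bp after the start, beyond the letters shown. CATGTG was in none of the 7, against 11.1%. The GC box, which Sp-family factors are known to bind, was in 6 of 7 entries against 45% of all promoters, with 8 matches at the inner start of ARHGDIA and 4 at the SPAG7 start. Neighbouring matches can share bases, as the first 2 in SPAG7 do. The 7 entries came from only 4 genes, so they do not count as 7 separate members. The entries were 64.7% to 83.7% G and C, where the median promoter has 58.7% and the upper quartile is 68.0%. They held 20 to 46 CpG, against a median of 14 and an upper quartile of 28. A match is a description of letters and not a binding site, and its absence says nothing about MYC there.

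The windows held 7 peaks at SPAG7, 6 at ARHGDIA, 6 at SPHK1, 5 at IGF2BP1 and 5 at KMT2A. In the whole list 272 summits (1.54%) had at least 5 peaks within 5 kb, themselves included, 109 (0.617%) had at least 6 and 37 (0.21%) had at least 7. The highest number was 8, at 5 summits (0.0283%), so SPAG7 with 7 was not first in the list at this scale. All 5 groups were compact and well inside the 5 kb limit. The farthest summit inside lay 3048 bp from its start, at ARHGDIA, with a fold of 7.15, and the closest summit outside lay 10331 bp away at the same gene, with a fold of 11.9. Fold is the authors' deposited enrichment of a peak over its local background. No summit of any of the 5 genes lay between these distances, so a window of 10 kb held the same peaks. Over all 29 peaks, 16 summits were upstream and 13 downstream of the start, in the direction of transcription.

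**Figure D1:**
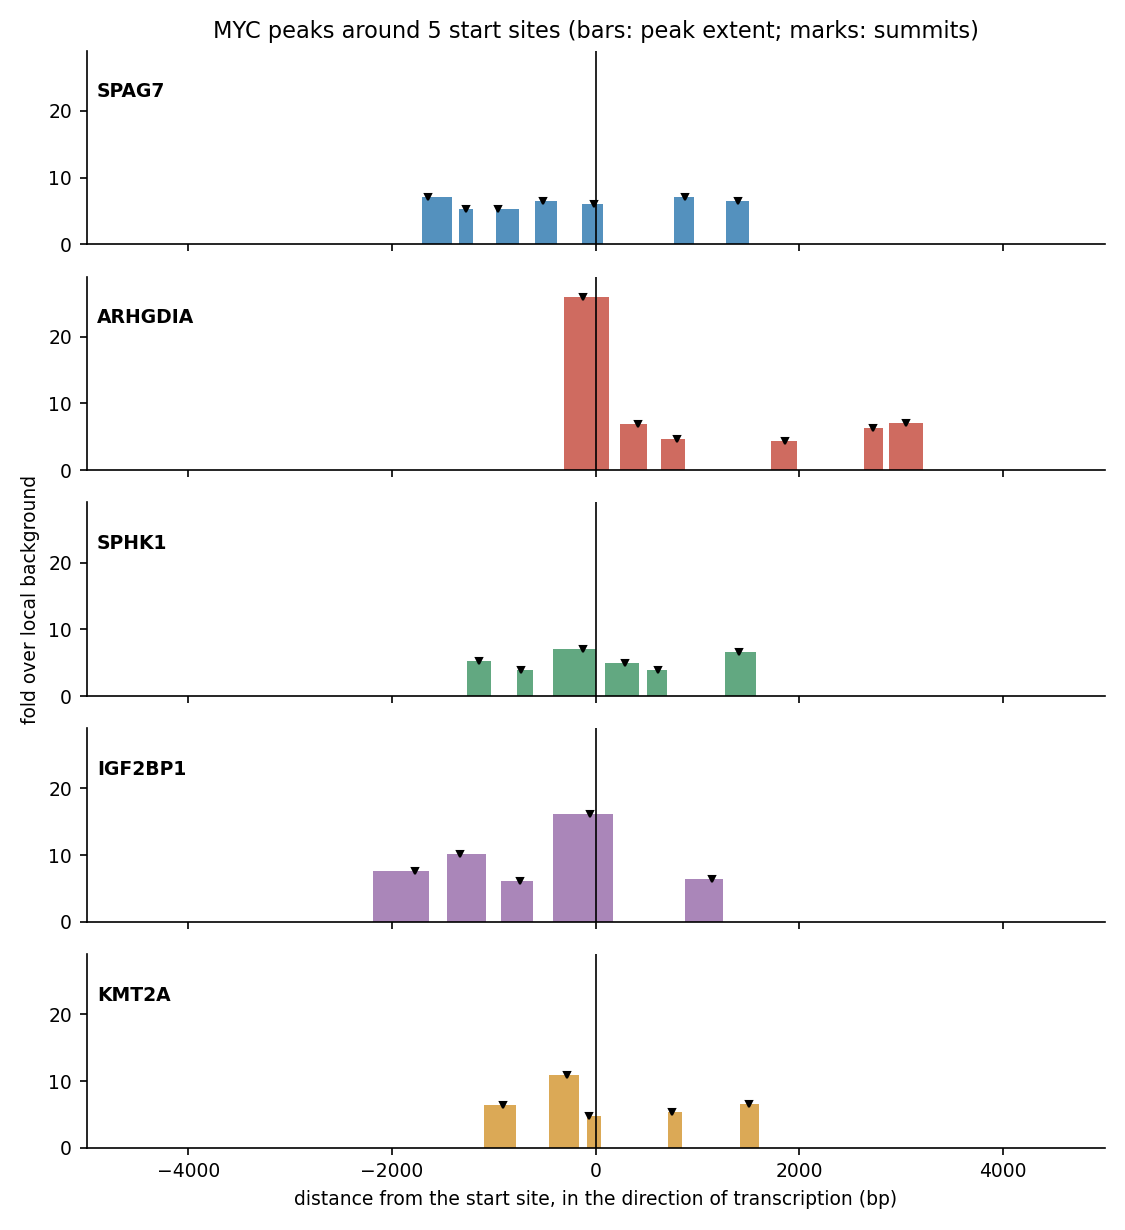
MYC peaks around the 5 start sites, with the distance from the start site in bp along the direction of transcription (negative is upstream) on the horizontal axis and the fold over local background on the vertical axis; bars span each peak and marks show summits. The 440-bp peak over the ARHGDIA start stands at a fold of 26.0, while the 7 peaks around SPAG7 lie between 5.35 and 7.05.

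SPAG7 had the most peaks and the most even ones. The start site is at chr17:4871132 on the minus strand, and RefSeq places CAMTA2 on its upstream side and ENO3 on its downstream side. From upstream to downstream the summits lay 1643, 1273, 963, 520 and 21 bp before the start and then 873 and 1402 bp after it. So 5 of 7 were upstream, and the group filled 3208 bp, from 4869627 to 4872834. In this order the folds were 7.05, 5.35, 5.35, 6.54, 6.03, 7.05 and 6.53. Peaks 1 and 6 tied for the highest fold, 1.32 times the lowest, peak 7 ranked 4, and the peak over the start ranked 5. The number of ChIP fragments over each summit, the pileup, was 12, 8, 8, 10, 13, 12 and 10. The 95% Poisson intervals overlapped in all 21 pairs of peaks, so no order of strength could be read from these counts.

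Most SPAG7 peaks stood on little background. Widths ran from 142 to 292 bp, with a median of 215 bp against 226 bp in the list, and 142 bp is the narrowest in the list, a width shared by 9.21% of all peaks. Backgrounds, the number of fragments expected from the input, were 0.843, 0.683, 0.683, 0.683, 1.32, 0.843 and 0.684 fragments. The lowest common value in the list, its floor, is 0.683, and 3 of the 7 peaks stood on it, against 9.97% of all peaks. Peaks that share a pileup and a background have the same fold by construction, which is why peaks 2 and 3 of SPAG7 and peak 4 of KMT2A all read 5.35. Spacing between neighbouring summits was 370, 310, 443, 499, 894 and 529 bp. The widest step was the one just inside the gene, from the peak over the start to the next, with 704 bp free of any peak.

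ARHGDIA was the opposite: a single strong peak over the start and a train of weaker ones inside the gene. The start site is at chr17:79829282 on the minus strand, with ALYREF on the upstream side and P4HB on the downstream side. The first summit lay 123 bp before the start, in a peak of 440 bp from 79829150 to 79829589. The other 5 lay 419, 801, 1857, 2727 and 3048 bp after it, and none lay farther upstream within 5 kb. The next peak on the upstream side was 15048 bp away with a fold of 5.22. In order, the folds were 26.0, 6.96, 4.68, 4.37, 6.35 and 7.15. The first was 3.64 times the second highest and ranked 74 in the whole list. It rested on 64 fragments (95% interval 49.3 to 81.7) over a background of 1.499, and the other peaks on 16, 12, 10, 15 and 17 fragments.

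The interval of the peak over the ARHGDIA start was apart from those of all 5 others, and the 10 remaining pairs overlapped. The downstream train therefore has no resolved order, although its last peak, 3048 bp into the gene, had the highest fold of the 5. Its fold of 7.15 had a counting interval of 4.33 to 11.2 with the background held fixed. Spacing was 542, 382, 1056, 870 and 321 bp. The peaks thus formed 2 groups, 3 peaks from the start to 801 bp and 2 at 2727 and 3048 bp, with a lone peak at 1857 bp between them. The closest pair in the train was separated by 61 bp, where the smallest gap in the list is 52 bp. Backgrounds were 1.44 to 1.78 fragments, above the list median of 1.12 at every peak.

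SPHK1 had peaks on both sides of the start in equal number. The start site is at chr17:74380690 on the plus strand, with PRPSAP1 upstream and UBE2O downstream. Summits lay 1150, 730 and 129 bp before the start and 286, 615 and 1412 bp after it, between 74379423 and 74382264. Folds were 5.22, 3.86, 7.05, 4.94, 3.88 and 6.59, with the start-site peak highest and the outermost downstream peak next. Peaks 2 and 5 were among the weakest of the list, in which only 2.89% and 2.91% of peaks had a lower fold. The peak nearest to the start ended on the start base itself.

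The strongest SPHK1 site depended on the measure. By pileup the order was 18, 9, 20, 10, 8 and 23 fragments, so the peak 1412 bp inside the gene had the most, over a background of 2.64, against 20 over 1.98 at the start. The interval of 23 fragments was 14.6 to 34.5 and that of 20 was 12.2 to 30.9. All 15 pairs of intervals overlapped, though 8 fragments (up to 15.8) and 23 (from 14.6) did so only narrowly. Backgrounds ran from 1.23 to 2.64 fragments, so the same number of fragments gave a lower fold here than at SPAG7: 8 fragments gave 3.88 here and 5.35 there. Spacing was 420, 601, 415, 329 and 797 bp, the shortest median of the 5 genes at 420 bp. The group of peaks was 2842 bp long. Its peaks were not compared with the RefSeq starts of SPHK1, which were not matched to the GRCh37 start.

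IGF2BP1 had the widest peaks, mostly upstream. The start site is at chr17:47074774 on the plus strand, with GIP upstream and B4GALNT2 downstream. Summits lay 1774, 1335, 741 and 60 bp before the start and 1144 bp after it, between 47072590 and 47076026. Folds were 7.69, 10.2, 6.06, 16.2 and 6.47, highest over the start and next highest 1335 bp upstream. Widths were 551, 389, 321, 585 and 371 bp against a list median of 226 bp, and the peaks covered 64.5% of the stretch, the highest share of the 5 genes. The 2 strong peaks changed places by pileup: 43 fragments (31.1 to 57.9) upstream over a background of 3.30, and 38 (26.9 to 52.2) at the start over 1.41.

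The other IGF2BP1 pileups were 27, 17 and 14 fragments, from upstream to downstream. Intervals were apart in 3 of 10 pairs: the upstream strong peak exceeded peaks 3 and 5, and the start peak exceeded peak 5. Those of the 2 strong peaks overlapped, so which of them held more fragments was not resolved at this depth. The background fell along the row from 3.30 at peak 2 to 1.97, 1.41 and 1.32, with 2.64 at peak 1. Spacing was 439, 594, 681 and 1204 bp. The last step, across the start of the gene, is the widest of all 24 neighbouring pairs in the 5 windows.

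KMT2A stood alone in its neighbourhood. The start site is at chr11:118307205 on the plus strand, with ATP5MG upstream and TTC36 downstream, and no other peak lay within 50 kb of it. The nearest were 172172 bp upstream and 94353 bp downstream. Summits lay 910, 281 and 64 bp before the start and 746 and 1507 bp after it, between 118306113 and 118308806. Folds were 6.47, 10.9, 4.75, 5.35 and 6.54. Here the peak over the start was the weakest and the one 281 bp upstream the strongest. These 2 were the closest summits of any window, 217 bp apart with 83 bp between the peaks.

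KMT2A peaks rested on few fragments: 14, 18, 7, 8 and 10. The interval for 18 was 10.7 to 28.4 and for 7 it was 2.81 to 14.4, and all 10 pairs overlapped. The peak over the start and the next one downstream had the minimal width of 142 bp, and 3 of 5 stood on the background floor. The covered share of the stretch was 39.9%, the lowest of the 5 genes. Spacing was 629, 217, 810 and 761 bp, with the longest median, 695 bp.

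**Figure D2:**
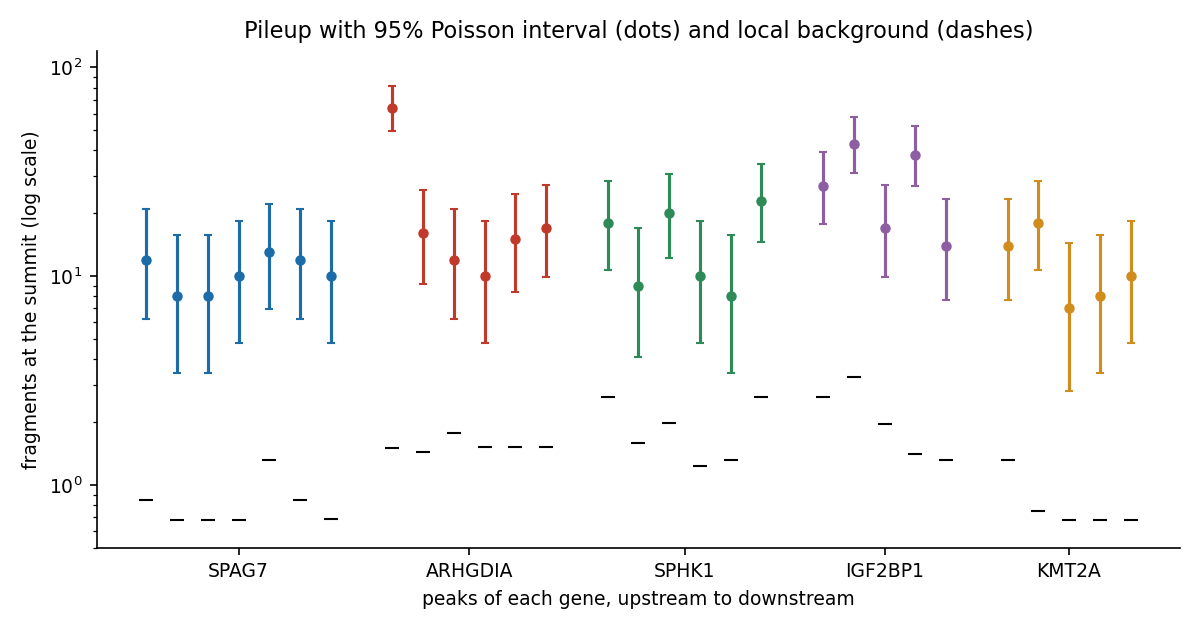
Fragments over each summit on a log scale, with 95% Poisson intervals, for the peaks of each gene from upstream to downstream; dashes show the local background in fragments. Peak 1 of ARHGDIA, at 64 fragments, and peaks 2 and 4 of IGF2BP1, at 43 and 38, stand highest, and the intervals of SPAG7, SPHK1 and KMT2A peaks overlap within each gene.

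Across the 5 genes, the peak with its summit nearest to the start had the highest fold at 3 genes, ARHGDIA, SPHK1 and IGF2BP1, and ranked 5 of 7 at SPAG7 and 5 of 5 at KMT2A. A fold of at least 10 was reached by 4 of the 29 peaks (13.8%): 1 at ARHGDIA, 2 at IGF2BP1 and 1 at KMT2A. In the whole list 15.4% of peaks reach it, so the members' share is near the background. The median fold was 6.47 in the windows and 6.40 in the list, and the median pileup was 13 fragments in both. Of the 29 peaks, 19 had a fold between the list's quartiles of 5.17 and 8.38, 3 of the 4 above 10 lay upstream within 300 bp of a start, and the exception was the IGF2BP1 peak at 1335 bp. Exons and introns under the peaks were not analysed here.

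Neighbouring summits were 217 to 1204 bp apart, with a median of 535.5 bp over 24 pairs, and 16 of the pairs lay at 300 to 700 bp. In the list the 3567 neighbouring pairs within 2 kb had a median of 593 bp and quartiles of 409 and 888 bp. A short spacing follows in part from choosing crowded windows. The stretches between neighbouring peaks that no peak covered ran from 61 to 850 bp with a median of 210 bp, and 8 of 24 were shorter than 142 bp, the width of the narrowest peak. Whether such close peaks are separate contacts of MYC or parts of a broader signal was not tested.

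**Figure D3:**
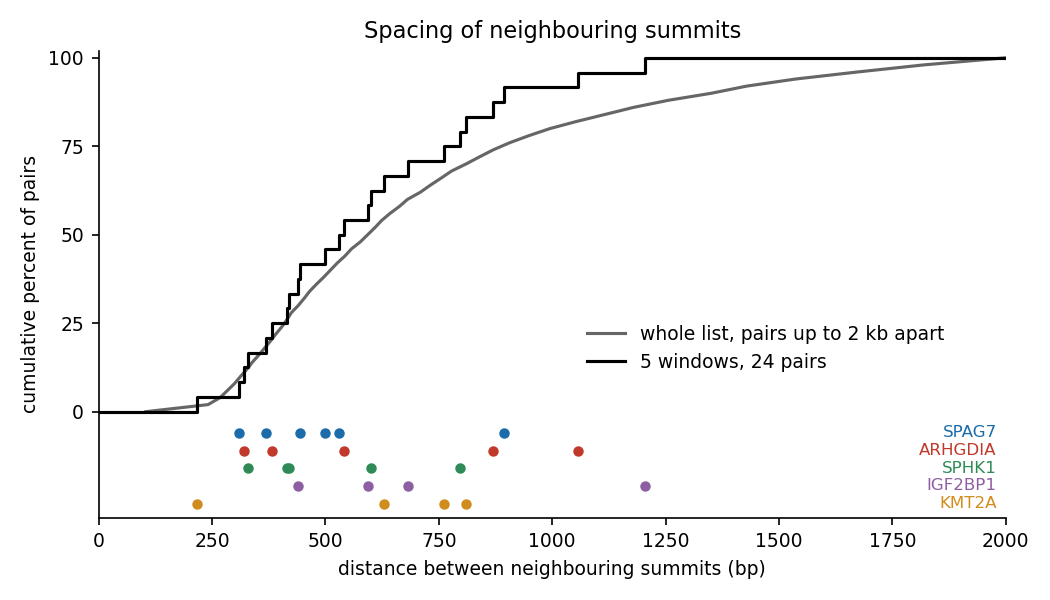
Cumulative percent of neighbouring summit pairs against their distance in bp, for the 24 pairs of the 5 windows (black steps) and for all pairs of the list up to 2 kb apart (grey line); coloured points show each gene's pairs. The single pairs run from 217 bp at KMT2A to 1204 bp at IGF2BP1, and the medians are 535.5 and 593 bp.

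Joining peaks with no more than 1 kb between them placed all peaks of each gene in 1 region. In the list 17 regions held 5 or more peaks, these 5 among them, and 4 held 6 or more. All 4 were on chromosome 17, and 3 of them were members, chosen for their number of peaks. Chromosome 17 carries 6.78% of all peaks, 50 of the 460 regions of 3 or more peaks and 6 of the 17 of 5 or more. Among 455 other regions of 3 or more peaks, the highest fold of the region was lower than at ARHGDIA in 98.2% and lower than at IGF2BP1 in 88.4%. It was lower than at KMT2A in 67.0%, and lower than at SPAG7 and SPHK1 in 20.2% and 19.3%. SPAG7, first by number of peaks among these joined regions, was thus low by its best peak. The ratio of the highest to the lowest fold in a region was 1.32 at SPAG7, 1.83 at SPHK1, 2.28 at KMT2A, 2.67 at IGF2BP1 and 5.95 at ARHGDIA. The median of the other regions was 1.86, and 98.9% of them had a lower ratio than ARHGDIA. No test was made of these differences, since the genes were chosen from the same list.

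**Figure D4:**
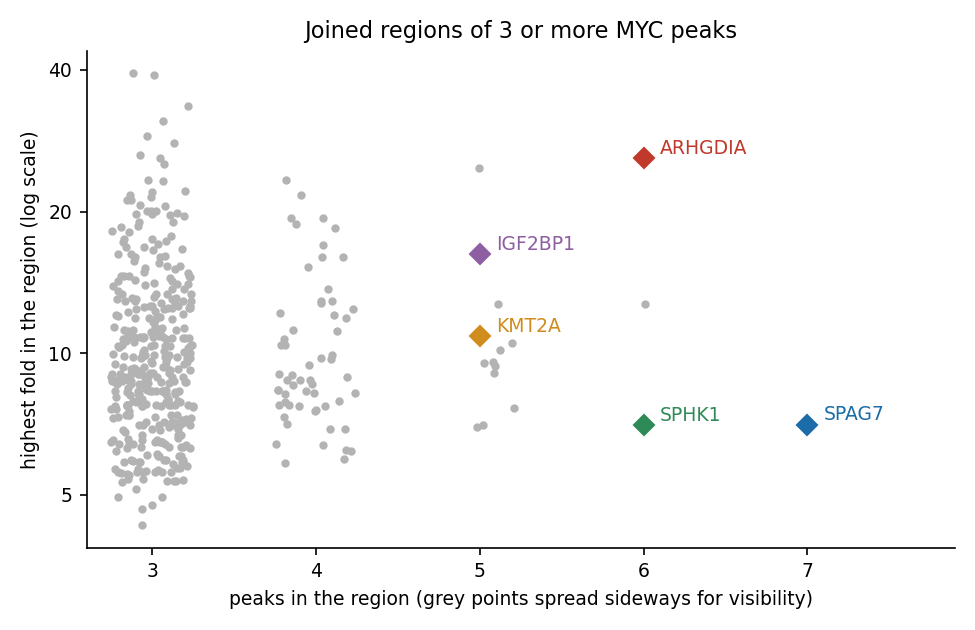
Highest fold in a joined region (log scale) against the number of peaks in it, for the 455 other regions of 3 or more peaks (grey, spread sideways) and the 5 genes (diamonds). SPAG7, with 7 peaks, and SPHK1, with 6, have a highest fold of 7.05, and ARHGDIA, with 6 peaks, has 26.0.

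The local background differed among the 5 genes. It rests on 1 input library and was given no counting interval, so the differences were not tested against counting error. The median background over a gene's peaks was 0.683 fragments at KMT2A and 0.684 at SPAG7, below all 12 other regions of 5 or more peaks, in which it ran from 0.712 to 1.499. It was 1.52 at ARHGDIA, 1.79 at SPHK1 and 1.97 at IGF2BP1, above all 12. The separation was not complete among the 455 other regions of 3 or more peaks. There the median background was lower than at ARHGDIA in 87.3%, than at SPHK1 in 91.4% and than at IGF2BP1 in 91.6%. Other such regions between the IGF2BP1 and ARHGDIA starts on chromosome 17, where SPHK1 also lies, ran from 1.06 to 2.64. None of the 12 lay on that stretch. Whether the background belongs to the stretch or to the genes was not tested. At the low end, other regions also stood at the floor of 0.683, and 6.81% were lower than SPAG7. A site with fewer fragments can pass the caller's threshold where the background is low. The lowest pileup among the peaks of each gene was 8 fragments at SPAG7, 10 at ARHGDIA, 8 at SPHK1, 14 at IGF2BP1 and 7 at KMT2A. The part of background in the number of peaks was not tested.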

How the data were processed

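The ChIP library of MYC and its input were summarised by the submitters as a list of 17659 peaks in 10 columns with no header. Per the submitters' processing notes, the build was GRCh37 and the tools were MACS2 2.1.0, STAR 2.5.2a, Picard 2.7.1, SAMtools 1.3 and bedtools, none with a stated role. The authors' deposited score equals 10 times the −log10 q, rounded down. The authors' deposited fold is a ratio with a pseudocount of 1, and the deposited −log10 p and −log10 q come from the peak caller. The list's filter is not given in the sources used here.

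Start sites are GRCh37, and distances use 1-based summits in the direction of transcription. The strand came from RefSeq for 4 genes and from the known orientation for IGF2BP1. RefSeq (GRCh38.p14) was used only for names, neighbours and promoter sequence. Each whole pileup from 3 to 699 was tried, by the definitions of fold and Poisson p in MACS2, and matched the −log10 p within 0.001 in 100% of peaks. The recovery was tested on simulated data. Backgrounds within 0.0003 of the lowest common value count as the floor. Total depth is unknown. Intervals are exact Poisson 95% intervals. Overlapping intervals do not show that counts are alike. A direct comparison of counts, which is less strict than asking for intervals apart, was not made. The fragments carried no molecular identifiers, so they may not be independent molecules. Python 3.11.15, pandas 2.3.3, numpy 2.4.6, scipy 1.17.1 and matplotlib 3.10.9 were used. The genes, motifs and settings were chosen with earlier results of these data known. Named are the 5 genes, every peak within 5 kb, the nearest peaks outside and the adjacent coding genes.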

Additional observations from a re-analysis of the deposited data

How the results depend on the processing

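With 1 library of each kind, no replicate could be left out and nothing was tested. Of 60 alternative values for the 5 genes, 47 stayed within 1.5 times (numbers of peaks), within the Wilson 95% interval (share upstream) or were identical (spacing and position), 11 moved and 2 changed sides of the start. Many of the 47 could not change and are no sign of stability. No summit lay between 3048 and 10331 bp, so the 10 kb and overlap settings held the same peaks. Each gene was already 1 run at a gap of 1 kb, so 2 kb added nothing. Only ARHGDIA had summits beyond 2 kb, so the 2 kb window was the same set elsewhere. The number of peaks was the same or within 1.5 times with summits within 2 kb or 10 kb and with any overlap of the window. Keeping only peaks at or above the list's median −log10 q left 2 of 7 at SPAG7, 2 of 6 at SPHK1 and 2 of 5 at KMT2A. Keeping those at or above the median fold left 4 at SPAG7, 3 at ARHGDIA, 2 at SPHK1 and 3 at KMT2A. A stricter limit lowers a count by construction. With a joining gap of 500 bp the longest run was 3 peaks at ARHGDIA and 3 at KMT2A, down from 6 and 5. Ranked by pileup, the strongest peak moved to -21 bp at SPAG7 and -1335 bp at IGF2BP1. At SPHK1 it moved from -129 bp to 1412 bp, both by pileup and by −log10 p; the higher background at the downstream peak lowers its fold by construction. No listed peak had a pileup under 5, which limits what this depth can show.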

Other observations

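The other 12 regions of 5 or more peaks were not matched to genes here. The region with 6 peaks lay on chromosome 17 from 2302851 to 2305444, with a highest fold of 12.8 and 2.31 peaks per kb, against 2.18 at SPAG7. The region on chromosome 11 from 35639262 to 35641391 had the highest fold of the 12, 24.8, and a ratio of 5.71 between its highest and lowest peak, against 5.95 at ARHGDIA. Its median fold was higher, 9.98 against 6.66 at ARHGDIA. The densest of the 12 lay on chromosome 11 from 73018710 to 73020540, with 2.73 peaks per kb, and the region with the largest covered share, 78.9%, on chromosome 9 from 73033399 to 73035311. The longest, of 3894 bp, lay on chromosome 7 from 116164525 to 116168418 and had the widest median spacing, 1011 bp, against 420 to 695 bp at the 5 genes.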
